A study of Phyllostachys edulis with 34 samples.

Results

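PheCAD12 (PH02Gene49901) and PheCAD14 (PH02Gene04778) are 2 of the 14 moso bamboo genes that the study numbers as PheCAD, and 2 of the 59091 genes in the deposited tables. They form a pair for their measured differences between each treatment and the control, CK, at 3 h and at 24 h, under the working description of a weaker response at 24 h. Those differences, and all others made from the same libraries, are therefore given as a description with no test, and nothing is supported with them. Tests are given only for other genes.

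RNA was sequenced from young leaves of moso bamboo (Phyllostachys edulis) seedlings, 30 days old. The study gave its treatments in nutrient solution. The treated groups received 25% polyethylene glycol (PEG), which lowers the water available to roots and serves as a drought treatment, 200 mM NaCl, 1 mM salicylic acid (SA) or 1 µM abscisic acid (ABA), each for 3 h and for 24 h. The reference groups were CK at 3 h, CK at 24 h and 0 h. CK was read as the untreated control of its hour, a meaning not spelled out in the labels. The group 0 h held 4 libraries and each of the other 10 groups held 3, which made 34 libraries in 11 groups. The study names its replicates as biological, while the labels do not say that they came from separate plants. The p-values given for other genes thus set a difference against the spread between these libraries.

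Cinnamyl alcohol dehydrogenase (CAD) reduces cinnamaldehydes to the alcohols from which lignin, the stiffening polymer of plant cell walls, is polymerised. The pathway starts from phenylalanine with phenylalanine ammonia-lyase (PAL), cinnamate 4-hydroxylase (C4H) and 4-coumarate:CoA ligase (4CL), and its ring-modifying steps include ferulate 5-hydroxylase (F5H). Plants carry several CAD genes, and members outside the lignin-forming branch are often studied for their part in stress and defence. Which of these roles PheCAD12 and PheCAD14 have is named neither in the labels nor in the tables.

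Library totals ran between 28153302 and 51695158 counts with a median of 33238237, and 0 of the 36 pairs of replicates were identical. Among 16877 genes the library labelled 0 h replicate 1 had Spearman correlations of 0.713 to 0.715 with replicates 2 to 4 of that label, and of 0.964 to 0.973 with the 3 libraries labelled ABA 24 h. The other 3 libraries labelled 0 h correlated at 0.987 to 0.988 with each other. Each library stayed in its labelled group, and levels at 0 h are given with and without replicate 1. The tables pair no names with the identifiers, so leaf marker genes were not examined here. In these bulk samples, fewer cells that express a gene and less of its RNA per cell cannot be told apart.

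PheCAD12 was by far the more abundant of the pair. FPKM, fragments scaled by gene length and library depth and the level used for comparing genes here, averaged between 14.1 and 146 across the 11 groups for PheCAD12 and between 1.70 and 16.6 for PheCAD14. The 2 genes did not share a profile. PheCAD12 was highest after 3 h of NaCl and lowest after 24 h of PEG, whereas PheCAD14 was highest in CK at 24 h and lowest in CK at 3 h. Over the 11 group means of log2 normalised CPM (counts scaled to library depth), Pearson's r between them was 0.084, and 0.014 over the 9 groups without those labelled 0 h and ABA 24 h. Both are descriptions over groups that share one normalisation.

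**Figure D1:**
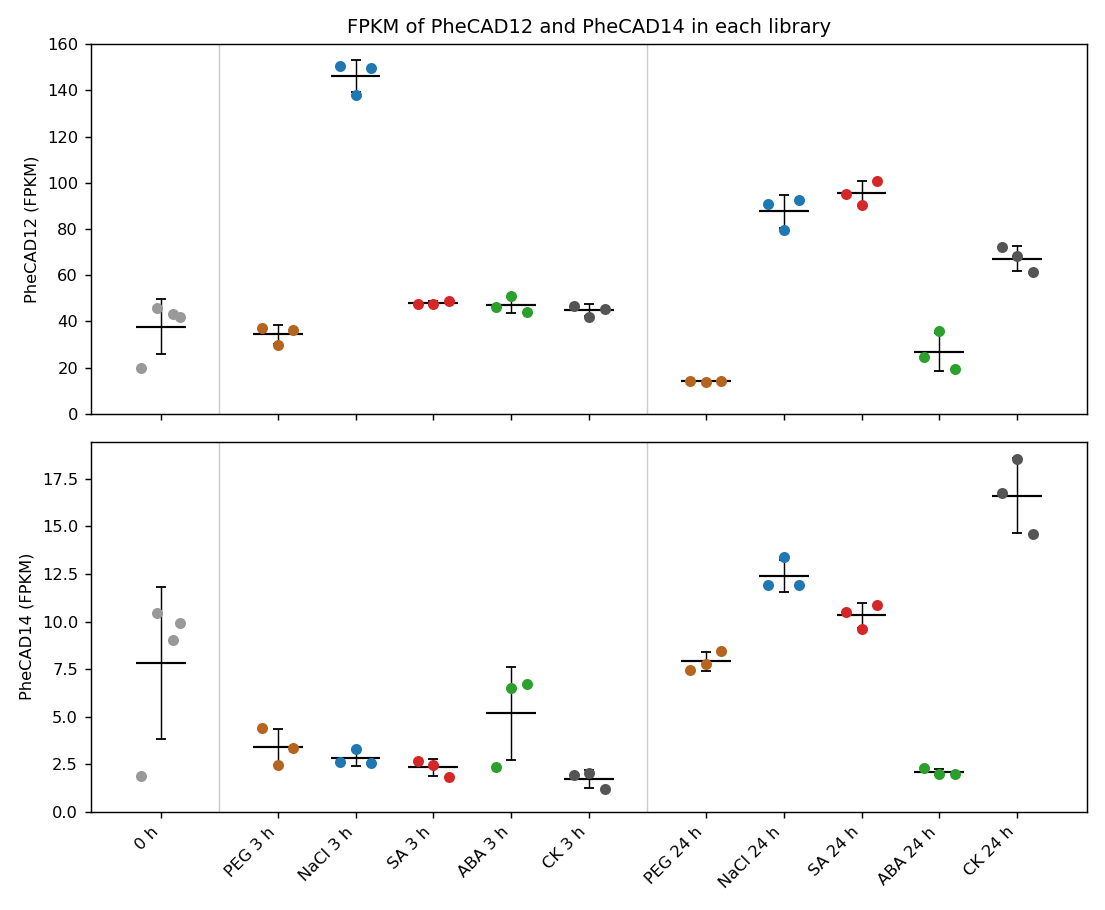
FPKM of PheCAD12 (upper panel) and PheCAD14 (lower panel) in each of the 34 libraries, by group; points are libraries, the long horizontal line is the group mean and the error bar is 1 SD. The NaCl 3 h libraries stand highest for PheCAD12, at 138 to 151 FPKM, the CK 24 h libraries stand highest for PheCAD14, at 14.6 to 18.5 FPKM, and 1 library labelled 0 h lies below the other 3 for both genes.

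At 3 h PheCAD12 stood far above CK in NaCl and near CK in the other treatments. Its FPKM was 151, 138 and 149.7 in the NaCl 3 h libraries, against 46.8, 41.9 and 45.6 in the CK 3 h libraries. The ranges did not overlap, and the mean of 146 ± 6.94 FPKM under NaCl was 3.27 ± 0.244 times the mean of 44.7 ± 2.57 FPKM in CK (SD, n = 3 each). The same fold from the counts, fitted with edgeR under TMM normalisation, which rescales each library by its bulk of genes, was 1.73 on the log2 scale with a standard error of 0.17.

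The SA 3 h libraries held 47.5, 47.4 and 49.0 FPKM of PheCAD12, all just above the CK 3 h libraries, with a ratio of means of 1.07 ± 0.0648. ABA 3 h libraries held 46.1, 50.9 and 44.3 FPKM and overlapped with CK, with a ratio of 1.05 ± 0.0979. PEG 3 h libraries held 37.3, 29.6 and 36.1 FPKM, all below CK, with a ratio of 0.767 ± 0.103. The order of PEG and CK depended on the scale. From the counts under TMM the PEG difference of PheCAD12 was 0.0098 on the log2 scale (SE 0.17) and the libraries overlapped, and for SA it was 0.46 (SE 0.17). Over 15779 well-measured genes the FPKM differences lay below the TMM differences by a median of 0.39 (PEG 3 h) and 0.36 (SA 3 h) on the log2 scale, so the PEG difference of PheCAD12 on the FPKM scale, -0.38, was about that of the median gene. The medians at 24 h were shifted by less, the farthest being -0.29 for ABA 24 h.

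At 24 h PheCAD12 was lowest in PEG and in the libraries labelled ABA 24 h. It held 14.1, 13.9 and 14.3 FPKM in the PEG 24 h libraries, against 72.2, 68.1 and 61.3 FPKM in the CK 24 h libraries. All PEG libraries were below all CK libraries, with a ratio of means of 0.210 ± 0.0174 and a fitted log2 fold change of -2.07 (SE 0.17). The libraries labelled ABA 24 h held 24.7, 36.0 and 19.6 FPKM, also below CK, with a ratio of 0.398 ± 0.129 and a fitted value of -1.03 (SE 0.17).

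NaCl and SA libraries at 24 h were above CK for PheCAD12. NaCl 24 h libraries held 90.8, 79.4 and 92.5 FPKM, a ratio of 1.30 ± 0.150 to CK and a fitted log2 fold change of 0.48 (SE 0.17). SA 24 h libraries held 95.0, 90.3 and 101 FPKM, a ratio of 1.42 ± 0.140 and a fitted value of 0.45 (SE 0.17). Neither range touched that of CK, and neither mean reached 2-fold. That is the size the study used to call a change. The study reports this gene as upregulated past that size in both treatments at the later hour, over a control whose libraries it does not name. Its values of 3.3 in NaCl and 3.6 in SA match the ratios over the libraries labelled ABA 24 h, given below, and not those over CK. The 2 sets of ratios may thus have different references. Which libraries were its control was not tested.

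PheCAD14 was a weakly expressed gene at 3 h. It held 1.93, 2.01 and 1.17 FPKM in CK 3 h, from 83, 130 and 49 counts, so that 1 library carried much of the spread. Its mean was above this in each treatment. The ABA 3 h libraries held 2.36, 6.48 and 6.70 FPKM, from 94, 266 and 253 counts. Replicate 1 was thus far below replicates 2 and 3, although still above all CK libraries.

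The ratio of PheCAD14 means to CK at 3 h was 3.04 ± 1.66 for ABA, with a fitted log2 fold change of 1.71 (SE 0.37) that was 2.06 without ABA 3 h replicate 1. In PEG 3 h, PheCAD14 held 4.39, 2.47 and 3.34 FPKM, against 1.70 ± 0.466 FPKM in CK (SD, n = 3), a ratio of 1.99 ± 0.784 and a fitted value of 1.37 (SE 0.37). All PEG libraries were above all CK libraries. NaCl 3 h libraries held 2.59, 3.31 and 2.57 FPKM, a ratio of 1.66 ± 0.517, and were above CK as well. SA 3 h libraries held 2.68, 2.47 and 1.81 FPKM, a ratio of 1.36 ± 0.457, and overlapped with CK on this scale but not on the TMM scale. The fitted log2 fold changes for NaCl and SA were 0.74 (SE 0.36) and 0.79 (SE 0.37).

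At 24 h PheCAD14 was below CK in all 4 treatments. The study reports the opposite direction for this gene at the later hour, a rise over its control in every treatment. That control may not be CK, so the directions may have different references. PheCAD14 was higher in NaCl, SA and PEG at 24 h than in the libraries labelled ABA 24 h, with ratios given below. For the group labelled ABA 24 h itself there is no such ratio. CK 24 h libraries held 16.7, 18.5 and 14.6 FPKM, from 733, 800 and 617 counts, so the counting error was smaller here than at 3 h. The libraries labelled ABA 24 h held 2.28, 1.98 and 1.98 FPKM of PheCAD14, against this mean of 16.6 ± 1.96 FPKM in CK (SD, n = 3), which made a ratio of 0.125 ± 0.0180 and a fitted log2 fold change of -2.69 (SE 0.37).

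PEG 24 h libraries held 7.47, 7.79 and 8.46 FPKM of PheCAD14, a ratio of 0.476 ± 0.0638 to CK with a fitted value of -0.89 (SE 0.35). SA 24 h libraries held 10.5, 9.60 and 10.9 FPKM, a ratio of 0.621 ± 0.0832 with a fitted value of -0.74 (SE 0.34). NaCl 24 h libraries held 11.9, 13.4 and 11.9 FPKM, a ratio of 0.746 ± 0.101 with a fitted value of -0.32 (SE 0.34). On the FPKM scale no treated library of PheCAD14 reached the lowest CK library. On the TMM scale the NaCl libraries overlapped with CK.

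**Figure D2:**
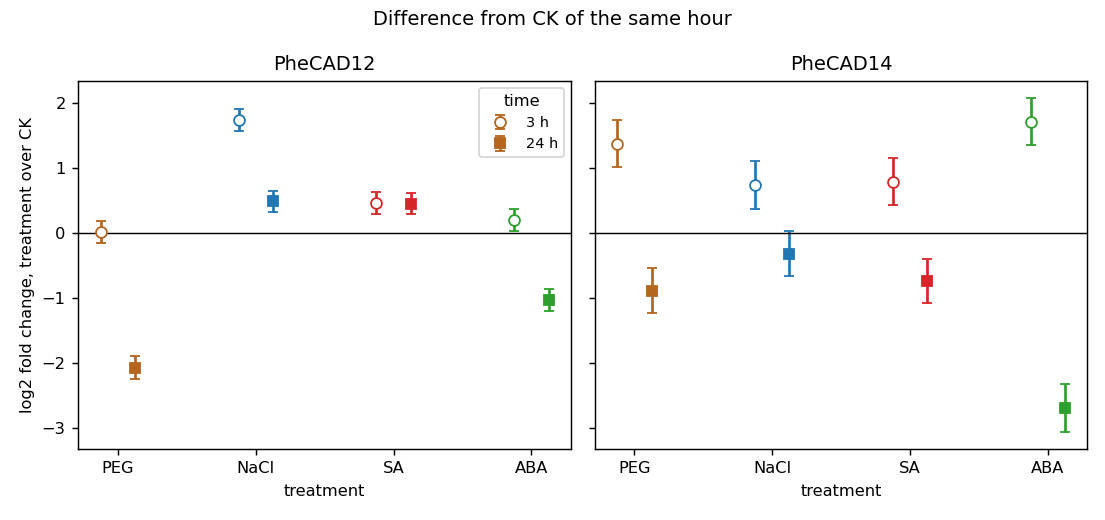
Fitted log2 fold change of each treatment over CK of the same hour for PheCAD12 (left) and PheCAD14 (right), from the counts; open circles are 3 h, filled squares are 24 h and bars are 1 standard error. For PheCAD14 all 4 values at 3 h lie above 0 and all 4 at 24 h lie below it, and for PheCAD12 the values of NaCl and SA lie above 0 at both hours.

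These values do not bear out the description of a weaker response at 24 h. Of the 8 pairs of gene and treatment, the fitted difference from CK was smaller in size at 24 h than at 3 h in 5, and by ratios of mean FPKM in 2. The direction was the more regular feature: 8 of 8 fitted values were above 0 at 3 h and 6 of 8 were below 0 at 24 h. For PheCAD12 in PEG 3 h the value was only 0.0098 (SE 0.17). With each library left out it ran from -0.038 to 0.11, so its sign is not settled. The values below 0 at 24 h include those of both genes in the libraries labelled ABA 24 h. On the FPKM scale 7 of 8 were above CK at 3 h and 6 of 8 were below it at 24 h. The fitted 24 h value minus the 3 h value was -4.41 (SE 0.52) for PheCAD14 under ABA, -2.27 (SE 0.50) under PEG, -1.53 (SE 0.50) under SA and -1.05 (SE 0.50) under NaCl. For PheCAD12 it was -2.08 (SE 0.24) under PEG, -1.25 (SE 0.24) under NaCl, -1.23 (SE 0.24) under ABA and -0.012 (SE 0.24) under SA. Both values under ABA rest on the libraries labelled ABA 24 h, whose label is in doubt. The comparisons of an hour share their 3 CK libraries, so their directions are not separate observations. Over all genes tested, the shares past an adjusted p under 0.05 and at least 2-fold against CK were 24.1% in PEG, 18.9% in NaCl, 27.2% in SA and 19.9% in ABA at 3 h, and 14.5% in PEG, 28.3% in NaCl, 19.2% in SA and 18.5% in ABA at 24 h. Nothing is read from these shares for PheCAD12 and PheCAD14, which were chosen on the same contrasts.

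The CK libraries themselves differed between the hours, and most of all for PheCAD14. Its mean was 16.6 ± 1.96 FPKM in CK at 24 h and 1.70 ± 0.466 FPKM in CK at 3 h, a ratio of 9.76 ± 2.91 and a fitted log2 fold change of 3.32 (SE 0.38). Past an adjusted p under 0.05 and at least 2-fold, 5.85% of the 39392 genes tested differed between the CK groups, a share from which nothing is read here because these libraries were used to choose PheCAD14. PheCAD12 differed less, with 67.2 ± 5.49 FPKM in CK at 24 h and 44.7 ± 2.57 FPKM in CK at 3 h, a ratio of 1.50 ± 0.150. What set the CK libraries of the hours apart was not tested.

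Within a treatment, PheCAD14 was also higher at 24 h than at 3 h in 3 of the 4 treatments. Its 24 h mean was 4.45 times the 3 h mean in SA, 4.39 times in NaCl and 2.33 times in PEG, each less than the ratio in CK, and 0.402 times in the libraries labelled ABA. The level of PheCAD14 under these 3 treatments was thus above that of its own 3 h libraries while below CK of the same hour. PheCAD12 took another course, with 24 h over 3 h ratios of 1.99 in SA, 0.599 in NaCl, 0.412 in PEG and 0.568 in the libraries labelled ABA.

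The libraries labelled 0 h were a further group for PheCAD12 and PheCAD14, with labels in doubt. PheCAD12 held 19.9, 45.6, 43.2 and 41.7 FPKM in replicates 1 to 4, a mean of 37.6 ± 11.9 FPKM (SD, n = 4), or 43.5 ± 1.94 without replicate 1. PheCAD14 held 1.85, 10.4, 9.02 and 9.94 FPKM, a mean of 7.81 ± 4.02 FPKM, or 9.80 ± 0.724 without replicate 1. In replicate 1 PheCAD12 lay inside the range of the libraries labelled ABA 24 h, 19.6 to 36.0 FPKM, and PheCAD14 lay just below their range of 1.98 to 2.28 FPKM. Whether these labels are right was not tested. Over the libraries labelled ABA 24 h, the PheCAD12 ratio of means was 3.27 in NaCl 24 h and 3.56 in SA 24 h. For PheCAD14 at 24 h it was 5.96 in NaCl, 4.97 in SA and 3.80 in PEG. The study reports rises of about these sizes for both genes over its control. PheCAD3 averaged 595 FPKM in NaCl 24 h and 2321 FPKM in SA 24 h. Its mean was 2.17 FPKM in the libraries labelled ABA 24 h and 12.8 FPKM in CK 24 h. PheCAD12 averaged 146 FPKM in NaCl 3 h, against 26.8 FPKM in the libraries labelled ABA 24 h and 44.7 FPKM in CK 3 h. The rises that the study reports there also match ratios over the libraries labelled ABA, and not those over CK. By size these libraries match its control, a reading that was not tested further. Without replicate 1, the level of PheCAD14 under the label 0 h lay between the CK levels of the 2 hours. That of PheCAD12 was close to CK at 3 h. Whether replicate 1 or replicates 2 to 4 carry the right label was not tested, so neither is taken as an untreated starting level.

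In order of mean FPKM, PheCAD12 ran NaCl 3 h, SA 24 h, NaCl 24 h, CK 24 h, SA 3 h, ABA 3 h, CK 3 h, 0 h, PEG 3 h, ABA 24 h and PEG 24 h. The library ranges of neighbours in this order were apart between NaCl 3 h and SA 24 h, between NaCl 24 h and CK 24 h, between CK 24 h and SA 3 h, and between ABA 24 h and PEG 24 h. All other neighbours overlapped, although without replicate 1 the 0 h libraries (41.7 to 45.6 FPKM) were apart from PEG 3 h. PheCAD14 ran CK 24 h, NaCl 24 h, SA 24 h, PEG 24 h, 0 h, ABA 3 h, PEG 3 h, NaCl 3 h, SA 3 h, ABA 24 h and CK 3 h. There the first 4 groups were apart from each other, and every later neighbour overlapped. Without replicate 1, the 0 h libraries of PheCAD14 (9.02 to 10.4 FPKM) overlapped with SA 24 h and were apart from PEG 24 h, which they then preceded.

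Set against each other at the same hour, the treatments spread widely in PheCAD12. Each such difference is the difference of 2 comparisons with CK, on which the pair was chosen, so these values are a description too and carry no test. Of 12 fitted differences for each gene, 8 were at least 2-fold in PheCAD12 and 3 in PheCAD14. For PheCAD12 these were 3 of 6 pairs at 3 h and 5 of 6 at 24 h. For PheCAD14 they were 0 of 6 at 3 h and 3 of 6 at 24 h, each against the libraries labelled ABA 24 h. Leaving those libraries aside, the counts were 5 of 9 for PheCAD12 and 0 of 9 for PheCAD14. The spread between replicates was wider in PheCAD14, with a biological coefficient of variation of 29.6% against 14.9% in PheCAD12 and a median of 25% over all genes. These are estimates over all 34 libraries, with 0 h replicate 1 kept in its labelled group.

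Over all 39392 genes, the shares past an adjusted p under 0.05 and at least 2-fold in edgeR's quasi-likelihood test at 3 h were 15.7% in NaCl against PEG, 14.2% in NaCl against SA, 23.5% in NaCl against ABA, 22.8% in SA against PEG, 32.8% in SA against ABA and 17.7% in PEG against ABA. At 24 h they were 18.8%, 15.6%, 35.5%, 22.1%, 34.6% and 21.8% in the same order of pairs. Nothing is read from these shares for PheCAD12 and PheCAD14.

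The NaCl 3 h libraries held the most PheCAD12. At 138 to 151 FPKM they did not overlap with those of any other treatment at 3 h, which lay between 29.6 and 50.9 FPKM. The fitted log2 difference of PheCAD12 was 1.72 (SE 0.17) for NaCl over PEG, 1.54 (SE 0.17) for NaCl over ABA and 1.27 (SE 0.17) for NaCl over SA. Among the 3 other treatments it was smaller, at 0.45 for SA over PEG (95% interval 0.12 to 0.78), 0.26 for SA over ABA (95% interval -0.06 to 0.59) and -0.19 for PEG over ABA (95% interval -0.52 to 0.14). All 3 fitted values were under 2-fold, and the intervals, like these values, are a description with no test.

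At 24 h the libraries held a high and a low pair of treatments in PheCAD12. NaCl 24 h (79.4 to 92.5 FPKM) and SA 24 h (90.3 to 101 FPKM) overlapped, with a fitted difference of 0.032 (95% interval -0.29 to 0.36). PheCAD12 was higher than in PEG by 2.55 (SE 0.18) in NaCl and by 2.52 (SE 0.18) in SA.

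Against the libraries labelled ABA 24 h, the fitted log2 difference of PheCAD12 was 1.51 (SE 0.17) for NaCl, 1.48 (SE 0.17) for SA and -1.04 (SE 0.17) for PEG. The last value was just past 2-fold. Without ABA 24 h replicate 2, at 36.0 FPKM the highest of the 3, it was -0.73, without PEG 24 h replicate 2 it was -0.999, and by limma on log2(FPKM + 1) it was -0.83, all under 2-fold.

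**Figure D3:**
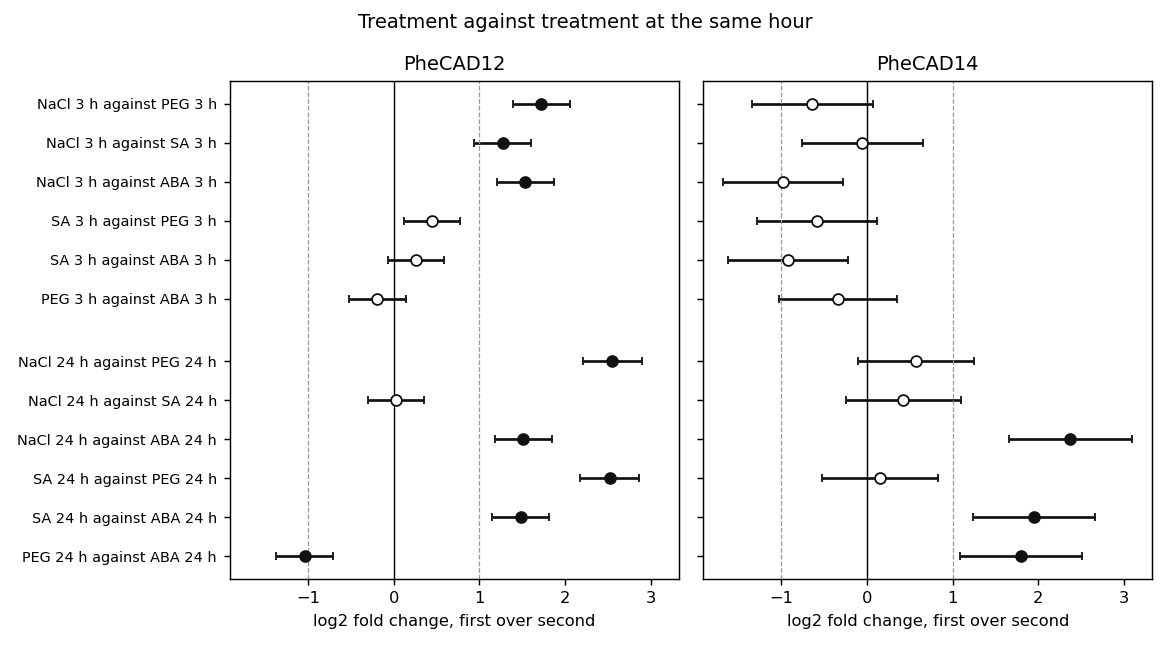
Fitted log2 fold change of the first treatment over the second at the same hour for PheCAD12 (left) and PheCAD14 (right), from the counts; bars are approximate 95% intervals, filled points are at least 2-fold and dashed lines mark 2-fold. PheCAD12 has 8 filled points of 12, and PheCAD14 has 3 of 12, all against the libraries labelled ABA 24 h.

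In PheCAD14 at 3 h the treatments were close to each other and their intervals wide. NaCl over ABA was -0.98 (95% interval -1.68 to -0.28) and SA over ABA was -0.92 (95% interval -1.63 to -0.22), both just under 2-fold. Without ABA 3 h replicate 1, the low library of that group, they were -1.33 and -1.32. NaCl over ABA also passed 2-fold without NaCl 3 h replicate 2 (-1.09), and SA over ABA without SA 3 h replicate 1 (-1.09) or replicate 2 (-1.02). The remaining pairs of PheCAD14 at 3 h were NaCl over PEG at -0.64 (95% interval -1.34 to 0.07), SA over PEG at -0.58 (95% interval -1.29 to 0.12), PEG over ABA at -0.34 (95% interval -1.03 to 0.35) and NaCl over SA at -0.053 (95% interval -0.76 to 0.65). Of these 4 intervals, 3 reach a 2-fold difference, and all are a description with no test.

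At 24 h PheCAD14 was lowest in the libraries labelled ABA 24 h. Its fitted log2 difference from them was 2.38 (SE 0.37) for NaCl, 1.95 (SE 0.36) for SA and 1.80 (SE 0.36) for PEG. The library ranges did not overlap, at 7.47 FPKM or more in NaCl, SA and PEG and at most 2.28 FPKM in ABA.

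Among NaCl, SA and PEG at 24 h the FPKM ranges of PheCAD14 were apart, while the fitted differences stayed small against their error. That error comes from 1 estimate of spread over all 34 libraries, with 0 h replicate 1 among them. It is thus not the spread of these groups alone. NaCl over PEG was 0.57 (95% interval -0.10 to 1.25), NaCl over SA was 0.42 (95% interval -0.25 to 1.09) and SA over PEG was 0.15 (95% interval -0.52 to 0.83). The same NaCl and PEG libraries differed in PheCAD12 by 2.55. The difference between the genes in this respect was not tested.

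The balance of the pair therefore varied widely between groups. PheCAD12 FPKM was 52.7 ± 9.50 times PheCAD14 FPKM after 3 h of NaCl and 10.4 ± 1.76 times after 3 h of PEG, against 28.03 ± 9.68 times in CK at 3 h. After 24 h the ratio was 1.79 ± 0.0965 in PEG, 7.10 ± 1.01 in NaCl and 9.24 ± 0.187 in SA, against 4.06 ± 0.336 in CK at 24 h. In the libraries labelled ABA 24 h it was 12.97 ± 4.52. PEG at 24 h was the group in which PheCAD14 came nearest to PheCAD12, and its libraries, at 1.69 to 1.89, were below those of all other groups.

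**Figure D4:**
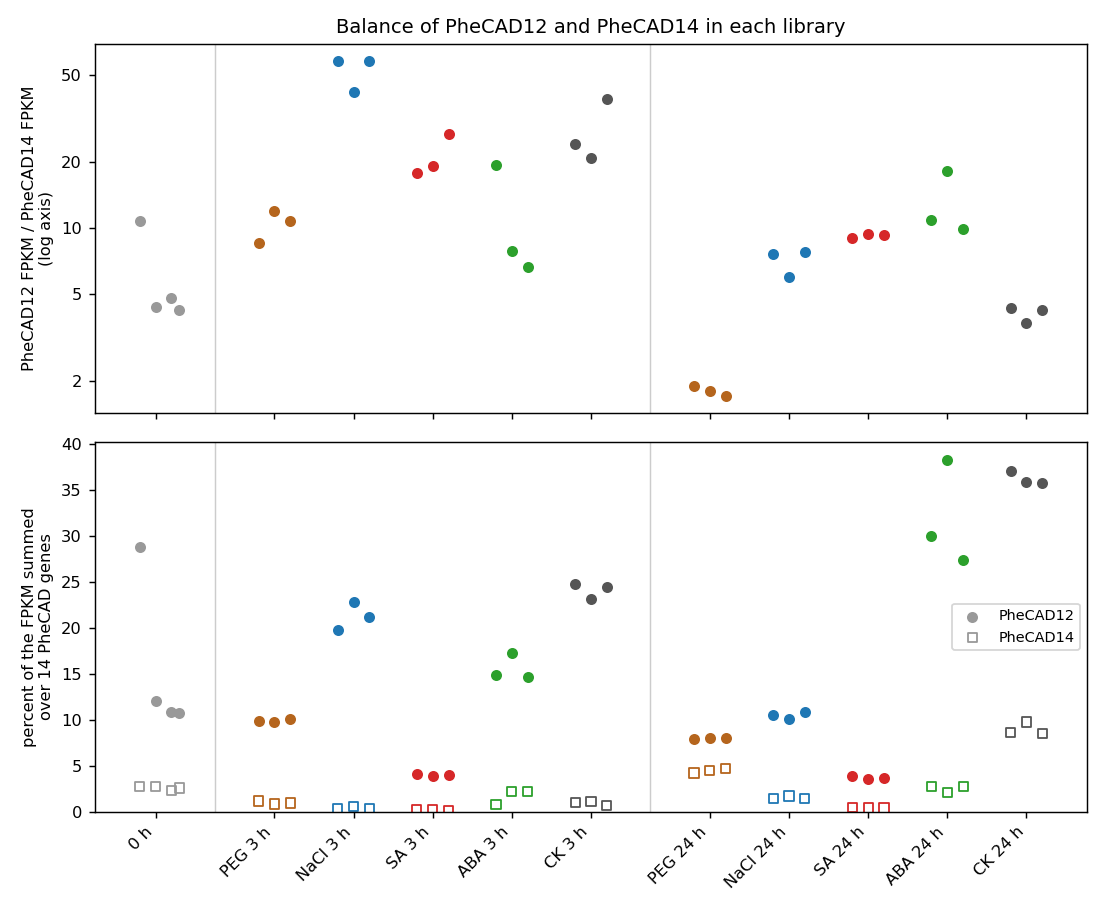
Ratio of PheCAD12 FPKM to PheCAD14 FPKM in each library (upper panel, log axis), and the percent that PheCAD12 (filled circles) and PheCAD14 (open squares) made up of the FPKM summed over the 14 PheCAD genes (lower panel). The ratio is lowest in the PEG 24 h libraries, at 1.69 to 1.89, and the share of PheCAD12 averages 3.71% in SA 24 h and 36.2% in CK 24 h.

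PheCAD12 was one of the leading CAD transcripts of these leaves. By mean FPKM it had rank 1 of the 14 PheCAD genes in CK 24 h, rank 2 in 8 groups, rank 3 in 0 h and rank 5 in PEG 24 h. PheCAD14 had ranks between 5 and 8. PheCAD12 made up 36.2% ± 0.710 of the summed PheCAD FPKM in CK 24 h and 24.1% ± 0.856 in CK 3 h, and PheCAD14 made up 8.95% ± 0.683 in CK 24 h and 0.920% ± 0.258 in CK 3 h.

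A share of PheCAD12 could be low where its level was high, because PheCAD3 ranked first in most treated groups. In SA 24 h PheCAD12 was at 95.4 ± 5.30 FPKM and 3.71% ± 0.143 of the sum, beside a mean of 2321 FPKM of PheCAD3. The share of PheCAD12 in the libraries labelled ABA 24 h was 31.9% ± 5.69 at 26.8 ± 8.40 FPKM, since the summed PheCAD level there was 82.7 FPKM, against 186 FPKM in CK 24 h.

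The 12 other PheCAD genes all passed the filter. Against CK, between 0 and 4 of them rose and between 0 and 3 fell in a comparison, beside 5.8% to 13.7% of all genes that rose and 8.36% to 14.6% that fell. PheCAD3 and PheCAD5 rose in edgeR's test in every comparison except that of the libraries labelled ABA 24 h, where 0 of the 12 rose and 3 fell. By limma on log2(FPKM + 1) the count that rose was 0 in place of 3 in PEG 24 h and 1 in place of 2 in ABA 3 h. The 1 fall in SA 3 h was a count of 0 to 2 with each library left out. PheCAD2, 1 of the family members that the study followed at the protein level, rose in NaCl 24 h by 1.44 on the log2 scale (edgeR adjusted p = 0.00604) and fell by 2.82 in the libraries labelled ABA 24 h (edgeR adjusted p = 1.96e-05).

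Of 146 other lignin genes on the study's list, drawn on other libraries, 144 were in the tables and 114 were tested. At 3 h against CK, 24 rose and 4 fell in PEG, where 12.5% of all genes rose and 11.6% fell. NaCl 3 h had 27 up and 14 down, beside 10.1% and 8.79% of all genes, ABA 3 h had 29 up and 4 down, beside 9.46% and 10.5%, and SA 3 h had 23 each way, beside 13.7% and 13.5%. Of the 6 C4H genes, 4 rose in PEG, 5 in NaCl, 4 in SA and 5 in ABA at 3 h, and 1 fell in SA. Other families differed. In SA 3 h, 4CL had 3 up and 5 down and PAL had 2 up and 3 down. In NaCl 3 h, 4CL had 4 up and 1 down and PAL had 6 up and 1 down. The families C4H, 4CL and PAL were named after their values were seen.

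At 24 h, PEG had 9 lignin genes up and 12 down, beside 6.18% and 8.36% of all genes, NaCl had 24 up and 13 down, beside 13.7% and 14.6%, and SA had 26 up and 24 down, beside 8.39% and 10.9%. The libraries labelled ABA 24 h had 5 up and 39 down, beside 5.8% and 12.7%. There the list's median log2 fold change was -0.59 against -0.060 over all genes, and all 13 PAL genes that were tested fell. PheCAD12 and PheCAD14 were both below CK in the same libraries. Their place among these counts was not tested, since the 2 genes were chosen on the same contrasts.

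The profiles most like that of PheCAD12 over the 11 group means, among the 126 PheCAD and lignin-list genes tested, were those of PAL PH02Gene40449 (Pearson's r = 0.77), C4H PH02Gene38832 (r = 0.76) and PheCAD6 (r = 0.75). All 3 were low. Group means ran from 0 to 2.61 FPKM for PH02Gene40449, with the highest in NaCl 3 h as in PheCAD12, from 0 to 4.27 FPKM for PH02Gene38832, also with the highest in NaCl 3 h, and up to 0.141 FPKM for PheCAD6. The mean of 0 stood in the libraries labelled ABA 24 h for both genes, where a count of 0 allows up to 3 counts per library by counting error alone. Over all genes tested, PH02Gene39475 (r = 0.95) and PH02Gene51085 (r = 0.93) were the most like PheCAD12. PH02Gene39475 averaged 48.1 FPKM in NaCl 3 h against 12.4 FPKM in CK 3 h, and 5.40 FPKM in PEG 24 h against 22.6 FPKM in CK 24 h.

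For PheCAD14 the most alike lignin genes were F5H PH02Gene21400 (r = 0.72), 4CL PH02Gene26838 (r = 0.70) and PAL PH02Gene08453 (r = 0.69). Each had a higher mean in CK at 24 h than in CK at 3 h, with 7.77 FPKM in CK 24 h and 3.68 FPKM in CK 3 h for PH02Gene21400, 130.5 FPKM in CK 24 h and 63.1 FPKM in CK 3 h for PH02Gene26838, and 4.05 FPKM in CK 24 h and 0.501 FPKM in CK 3 h for PH02Gene08453. The likeness did not hold in every group, since PH02Gene21400 averaged 51.4 FPKM in PEG 24 h and 58.6 FPKM in NaCl 24 h, both above CK 24 h, while PheCAD14 was below CK 24 h in both. Over all genes, PH02Gene14853 (r = 0.92) and PH02Gene38568 (r = 0.90) came first. PheCAD2 had r = 0.68 with PheCAD14 and 0.20 with PheCAD12, and PheCAD6 had r = 0.14 with PheCAD14.

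These rankings moved with the doubtful libraries. Without 0 h replicate 1, PheCAD6 had r = 0.69 with PheCAD12 and PH02Gene27014, a PAL gene, took its place at r = 0.70, the other leading genes of both stayed the same, and r between PheCAD12 and PheCAD14 was 0.074. Without the groups labelled 0 h and ABA 24 h, the leading lignin genes for PheCAD12 were PAL PH02Gene27012 (r = 0.84), C4H PH02Gene38832 (r = 0.83) and PAL PH02Gene40449 (r = 0.80), and PH02Gene39475 stayed first over all genes at r = 0.95. For PheCAD14, F5H PH02Gene29718 (r = 0.81) and PAL PH02Gene27016 (r = 0.78) were then among the 3 leading lignin genes, with PheCAD2 at r = 0.77. The correlations run over 11 or 9 group means that share CK libraries and one normalisation, and are given with no test.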

How the data were processed

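Leaf RNA was sequenced in 34 libraries. Deposited were raw read counts per gene, not normalized, and FPKM values that the authors computed. The submitters' processing notes name HISAT2 and DESeq2 without a role; the counter, genome build, annotation and the handling of multi-mapping reads were not given in the sources used here. All 34 columns of each table matched a library's label, and no column was left out.

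The 2 genes, the lists and the tests were chosen with earlier results of these data known. Counts were filtered with filterByExpr, which left 39392 genes, normalised by TMM and fitted with edgeR 4.0.16 in R 4.3.3 as 1 quasi-likelihood model with a mean per group over all libraries. Standard errors were approximated from the F statistic (size of the log2 fold change divided by its root), and intervals are 1.96 standard errors either side, both approximate. A gene passed at a Benjamini-Hochberg adjusted p under 0.05 and at least 2-fold; tests are two-sided. Ratios of mean FPKM carry the SD propagated from both groups. A 95% interval is built from the spread between libraries as fitted. In simulated counts of 34751 genes with 200 changed 4-fold, the fit recovered 192 and made 8 false calls. That simulation gave all genes the same spread and held no doubtful label. It therefore does not show how well the fit does on these data.

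Named genes were the 2 members, the 3 lignin-list genes and the 2 genes of all with the highest Pearson's r to each over group means, PheCAD2 and PheCAD6, and at most the largest rise and fall of the list per comparison with CK, of which only genes also named for their likeness are given; PheCAD3 and PheCAD5, the genes called within the family, and the genes most alike without the doubtful libraries were named after their values were seen. Not all genes most alike without those groups are reported here. The tests between treatments were planned for the 2 genes and are given as values only, since each is the difference of 2 comparisons with CK. Of the 160 list entries, 158 were in the tables. The list was taken from the study's families by their headings; for 5 entries the heading and the text of the list differ. Alternatives were DESeq2 1.42.0 size factors and its own test, no filter, only the 2 groups compared, a replicate block, limma 3.58.1 on log2(FPKM + 1) and log2(FPKM + 0.1), the ratio of mean FPKM, each library left out in turn, and the groups labelled 0 h and ABA 24 h left out together.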

Additional observations from a re-analysis of the deposited data

Results flagged for a closer look

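In the library labelled 0 h replicate 1, PheCAD12 stood at 19.9 FPKM and PheCAD14 at 1.85 FPKM, each far below the 3 other libraries of the group. The gap to the nearest library took 0.851 (PheCAD12) and 0.834 (PheCAD14) of the group's range, past the value used for flagging. This flag is a description and no test, since the library already stood apart from its group over many genes. Both values come from the same library, so they are 1 observation.

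For 4 pairs of gene and treatment, every treated library lay above every CK library at 3 h and below every CK library at 24 h on the normalised counts. The 24 h minus 3 h difference on the log2 scale was -4.41 for PheCAD14 under ABA, -2.27 under PEG and -1.53 under SA, and -1.23 for PheCAD12 under ABA. Both differences under ABA rest on the libraries labelled ABA 24 h, whose label is in doubt. These differences were not tested, because the genes were chosen on these contrasts. On the FPKM scale, PheCAD14 in SA 3 h and PheCAD12 in ABA 3 h overlapped with CK.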

How the results depend on the processing

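Of the 24 fitted differences between treatments, 11 were at least 2-fold, as with DESeq2 size factors, no filter, only the 2 groups compared, DESeq2, limma on log2(FPKM + 0.1) and the ratio of mean FPKM, and 10 with limma on log2(FPKM + 1); these counts do not say which pairs. The numbers of the replicates did not pair the libraries: in 0 of 20 comparisons did all same-numbered libraries deviate together at r over 0.1 (median r = 0.0037), and in 2 of 20 did every library correlate best with its own number. With the replicate block, 11 of 24 were at least 2-fold, and PheCAD12 in NaCl 3 h against PEG 3 h was 1.72. Differences from CK that moved by more than the spread of the libraries were PheCAD12 in PEG 3 h (-0.38 by limma on log2(FPKM + 1), -0.39 with + 0.1, -0.38 by ratio of mean FPKM), PheCAD12 in SA 3 h (0.10 by all 3), PheCAD14 in PEG 3 h (0.69 by limma with + 1), PheCAD12 in PEG 24 h (-2.24 by limma with + 0.1, -2.25 by ratio) and PheCAD14 in ABA 24 h (-2.94 and -2.999).

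Between treatments, PheCAD12 in NaCl 24 h against SA 24 h turned in sign (-0.12 and -0.13 by limma, -0.12 by ratio, and -0.0063 to 0.078 with each library left out), and so did PheCAD14 in NaCl 3 h against SA 3 h (0.21 and 0.28 by limma, 0.28 by ratio, and -0.16 to 0.10 with each library left out). PheCAD12 in PEG 24 h against ABA 24 h was under 2-fold by limma (-0.83 and -0.87) and ran from -1.19 to -0.73 with each library left out, under 2-fold without ABA 24 h replicate 2 and, at -0.999, without PEG 24 h replicate 2. PheCAD14 against ABA 3 h ran from -1.33 to -0.76 in NaCl and from -1.32 to -0.75 in SA, reaching 2-fold without ABA 3 h replicate 1, for NaCl also without NaCl 3 h replicate 2 (-1.09) and for SA without SA 3 h replicate 1 (-1.09) or 2 (-1.02). By ratio of mean FPKM, PheCAD12 moved to 2.09 for NaCl against PEG, 1.61 for NaCl against SA, 0.027 for SA against ABA and -0.46 for PEG against ABA at 3 h, and to 2.76 for SA against PEG at 24 h, while PheCAD14 moved at 24 h to 2.58 for NaCl against ABA, 0.39 for SA against PEG and 2.31 for SA against ABA.

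Counts on the lignin list by limma with + 1 were 14 up and 8 down in PEG 3 h, 9 down in NaCl 3 h, 11 up in SA 3 h, 18 up and 2 down in ABA 3 h and 5 up in PEG 24 h. With + 0.1 they were 15 down in PEG 3 h, 15 up and 36 down in SA 3 h, 12 down in ABA 3 h and 3 up in ABA 24 h. Fitted on the 2 groups alone, ABA 24 h had 8 up, and without the libraries labelled 0 h and ABA 24 h, ABA 3 h had 8 down. With each library left out, the list had 2 to 6 down in PEG 3 h (2 without PEG 3 h replicate 1), 9 to 15 down in NaCl 3 h (9 without CK 3 h replicate 2), 3 to 8 down in ABA 3 h (8 without 0 h replicate 1), 8 to 14 down in PEG 24 h (8 without PEG 24 h replicate 3) and 4 to 9 up in ABA 24 h (9 without ABA 24 h replicate 2). The cause of these shifts was not tested. Low counts limit PheCAD14, with 49 to 130 in CK 3 h, 85 to 99 in the libraries labelled ABA 24 h and 76 in 0 h replicate 1.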
